A study of Mus musculus with 4 samples.

Results

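The common gamma chain cytokine receptor genes studied here are Il7r, Il2ra, Il2rb, Il2rg, Il4ra, Il15ra and Il21r. They were chosen by symbol as the chains that bind IL-2, IL-4, IL-7, IL-15 and IL-21, and are 7 of the 32285 genes in the matrices. All 7 passed the filter on low counts, which left 13487 genes to be tested. The cells were splenic CD8+ T cells from 2 gBT-I.CD45.1 tg mice, whose transgenic T cell receptor recognises a herpes simplex virus peptide. Each spleen was activated in culture with peptide-pulsed B6 splenocytes and LPS and then grown in recombinant human IL-2. From each mouse, 1 culture was given sodium butyrate at 0.5 mM between days 3 and 5 and a parallel culture PBS, the control. Viable CD8+Vα2+ cells were sorted and sequenced on day 6, giving 2 libraries per group. Both groups therefore shared the transgene, the activation and the added IL-2, and the labels name no age or sex.

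Receptors of this family pair a chain that is specific to a cytokine with the common gamma chain, encoded by Il2rg, which carries the signal through JAK3. The IL-2 receptor adds the alpha chain (Il2ra, CD25) to the beta chain (Il2rb, CD122) and the common chain, and the beta and common chains also serve IL-15 together with the IL-15 receptor alpha chain. In CD8+ T cells, Il7r (CD127) is known as a marker of naive and memory precursor cells that falls after activation, whereas Il2ra rises with activation and IL-2 signalling. Because these receptors share the common chain, the balance of their other chains bears on which cytokines a cell can receive.

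The 7 genes lie at 5 places in the genome (GENCODE M21, GRCm38). Il2ra (chr2:11642807-11693193, plus strand) and Il15ra (chr2:11705290-11734317, plus strand) are neighbours 12097 bases apart. Il4ra (chr7:125552120-125579474, plus strand) and Il21r (chr7:125603429-125633570, plus strand) are likewise neighbours, 23955 bases apart. Il7r (chr15:9505788-9530176) and Il2rb (chr15:78479256-78495271) lie on the minus strand of chromosome 15, and Il2rg (chrX:101264378-101268255) on the minus strand of chromosome X. Il4ra overlaps the antisense gene Gm44876 of the matrices, and in the annotation Il2rg lies within Gm20489 on the same strand, which was not analysed here; whether the counting used strand is not given in the sources used here.

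RefSeq promoter windows of 300 bases (GRCm38.p6, 250 bases before to 50 after a start) were found for 6 of the 7 genes. Shown are Il7r (chr15:9529827-9530126, minus strand), the CD127 gene named in the series title, Il2ra (chr2:11642542-11642841, plus strand) and Il21r (chr7:125603179-125603478, plus strand), whose levels rose most, and the second listed start of Il15ra (chr2:11705462-11705761, plus strand), the chain that fell. Capitals mark matches to TTCNNNGAA (the STAT consensus), GTAAACA (FOXO), TGTGGTT (RUNX), TGANTCA (AP-1) or TATAAA, searched on both strands with no overlap between matches.
Il7r: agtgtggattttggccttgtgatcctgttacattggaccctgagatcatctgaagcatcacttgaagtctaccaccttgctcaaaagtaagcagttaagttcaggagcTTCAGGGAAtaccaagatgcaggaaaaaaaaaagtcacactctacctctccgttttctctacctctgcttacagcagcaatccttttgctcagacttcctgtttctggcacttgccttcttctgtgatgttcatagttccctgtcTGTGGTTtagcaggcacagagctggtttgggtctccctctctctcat
Il2ra: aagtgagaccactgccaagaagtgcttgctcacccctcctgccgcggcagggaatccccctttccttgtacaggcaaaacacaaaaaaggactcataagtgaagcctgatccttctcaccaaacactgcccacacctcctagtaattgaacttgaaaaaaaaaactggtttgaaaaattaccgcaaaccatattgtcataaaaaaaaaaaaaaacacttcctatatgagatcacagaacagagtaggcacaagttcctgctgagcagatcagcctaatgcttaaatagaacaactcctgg
Il21r: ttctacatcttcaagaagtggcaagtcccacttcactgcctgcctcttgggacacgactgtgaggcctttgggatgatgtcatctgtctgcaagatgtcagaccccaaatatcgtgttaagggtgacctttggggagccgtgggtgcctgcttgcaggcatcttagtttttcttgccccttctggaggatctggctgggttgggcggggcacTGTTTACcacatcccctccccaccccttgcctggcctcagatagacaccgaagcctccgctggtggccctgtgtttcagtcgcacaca
Il15ra: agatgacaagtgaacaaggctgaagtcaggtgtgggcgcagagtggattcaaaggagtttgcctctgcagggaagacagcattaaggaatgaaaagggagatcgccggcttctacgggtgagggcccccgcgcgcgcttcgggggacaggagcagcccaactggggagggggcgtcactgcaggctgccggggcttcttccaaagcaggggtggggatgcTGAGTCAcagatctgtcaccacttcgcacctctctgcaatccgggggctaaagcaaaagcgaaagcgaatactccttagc
The Il7r window held TTCAGGGAA from its base 109 and TGTGGTT from its base 254. The Il21r window held TGTTTAC, the reverse complement of GTAAACA, from base 213, and the Il15ra window held TGAGTCA from base 221. The Il2ra window held no match. The windows not shown, those of Il4ra, Il2rg and the first listed start of Il15ra, held none either. Of 32851 RefSeq promoter windows, 8.30% held TTCNNNGAA, 3.65% GTAAACA, 5.27% TGTGGTT, 7.81% TGANTCA and 13.6% TATAAA. The shown Il7r and Il15ra windows lie wholly inside the GENCODE spans of these genes. Their matches are therefore not upstream of the GENCODE starts. A match describes the sequence and is not evidence of binding.

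Each library held 2059 to 2664 kept cells and 64388093 to 76522004 unique molecular identifiers (UMIs, each standing for 1 captured transcript), with a median of 20494 to 24816 UMIs per cell. No single library stood apart, and pairs of libraries shared 1 to 6 cell barcodes. The mitochondrial share moved with the group: its limit removed 217 and 295 control barcodes against 63 and 92 butyrate barcodes, and kept cells had medians of 4.89% and 4.91% against 3.93% and 4.13%. With a limit of 5%, all 7 receptor chains still passed the test in all kept cells. Cd8a was detected in 58.0% to 64.8% of cells after each cell was thinned to 8000 UMIs. The B cell genes Cd79a and Ms4a1 were at or below 0.0701 CPM (UMI counts scaled to a common library size) on average in either group, Foxp3, which defines regulatory T cells, at or below 0.0857 CPM, and the macrophage genes C1qa and C1qb at 0. Of the other-lineage lists, the summed CPM of the CD4 and regulatory T cell list was 48.0 and 48.4 in control, against 28.1 and 30.5 in butyrate, with 2 of 4 tested genes higher and 2 lower. The B cell list summed to 136 and 139 CPM in control, against 49.6 and 50.4 in butyrate, of which Ighm, the IgM heavy chain gene, gave 131 and 39.7 on average; Ighm was lower and the other 2 of its 3 tested genes higher (Cd79b by a log2 change of 0.50 and Cd74 by 1.72). The myeloid list summed to 105 to 106 CPM in control, against 146 to 148 in butyrate, the dendritic list to 28.7 to 33.4 and 43.0 to 49.2, and the NK and innate lymphoid list to 80.5 to 102 and 121 to 144. All 3 tested myeloid genes and all 5 tested dendritic genes were higher, Itgam by a log2 change of 4.07, Cd68 by 2.37, H2-Eb1 by 4.60, H2-Aa by 3.95 and Fscn1 by 3.32, most of the sums being Cst3 and H2-Ab1. The marker genes given here with changes were named after their values were seen. In the NK and innate lymphoid list 2 of 4 tested genes were higher, among them Tyrobp by 3.87, and 1 was lower. All these counts are to be read against the 36% of all genes tested that were higher and the 35.7% that were lower. The part of these lists in the results below was not tested.

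Most of the receptor chains were higher under butyrate, by unequal amounts. Il2ra and Il21r rose most, Il2rb and Il4ra rose less, and Il15ra fell. Il7r and Il2rg rose slightly with TMM scaling (edgeR's trimmed mean of M-values), but Il2rg was lower with library totals alone and Il7r was lower when every cell was thinned to 8000 UMIs. All 7 passed the test, 6 higher and 1 lower, where 71.8% of all genes tested passed, 36% higher and 35.7% lower. The 2 groups did not overlap for any of the 7 genes, nor for 85.9% of all genes. The median log2 change was 0.44 over the 7 genes and -0.0079 over all genes tested. The test was edgeR's quasi-likelihood F test on UMIs summed per library, with Benjamini-Hochberg adjustment over all genes. With 2 cultures per group its error comes mostly from variation pooled over genes.

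Among the IL-2 receptor chains, Il2ra, the high-affinity alpha chain, stood at 123 and 126 CPM in the control libraries and at 317 and 319 CPM in the butyrate libraries. Both butyrate libraries were far above both controls, and the log2 change was 1.35 (SE 0.042, adjusted p = 1.33e-12). Il2rb, the beta chain shared with IL-15, was at 344 and 357 CPM in control, against 479.6 and 473 CPM in butyrate. The groups did not overlap, and the log2 change was 0.44 (SE 0.043, adjusted p = 2.37e-07). Il2rg, the common gamma chain, was at 125 and 122 CPM in control, against 138 and 134 CPM in butyrate. Its log2 change of 0.14 (SE 0.042, adjusted p = 0.0079) was the smallest of the 7. The Il2rg call ended with library totals alone (log2 change -0.061, adjusted p = 0.216) and after thinning to 8000 UMIs (0.095, adjusted p = 0.103). It also ended without butyrate replicate 1 (log2 change 0.12). Without TMM scaling, the thinned cells held a mean of 1.15 Il2rg UMIs in both control libraries, against 1.09 and 1.06 in butyrate.

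Il7r, the IL-7 receptor alpha chain, was at 46.8 and 43.6 CPM in control, against 51.7 and 56.5 CPM in butyrate. The butyrate libraries were higher without overlap, by a log2 change of 0.26 (SE 0.054, adjusted p = 0.000575). That call ended with library totals alone (log2 change 0.060, adjusted p = 0.327), where the median of all genes moved to -0.21. It also ended after thinning, which gives each cell the same weight, and there the sign turned (log2 change -0.048, adjusted p = 0.507). That log2 change still carried TMM scaling. Without scaling, the thinned cells held a mean of 0.537 and 0.514 Il7r UMIs in control, against 0.429 and 0.460 in butyrate.

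Il21r, the IL-21 receptor, was at 29.8 and 29.5 CPM in control, against 69.6 and 68.5 CPM in butyrate, a log2 change of 1.22 (SE 0.046, adjusted p = 1.01e-11). Its neighbour Il4ra, the IL-4 receptor alpha chain, was at 37.0 CPM in both control libraries and at 51.2 and 49.7 CPM in butyrate, a log2 change of 0.45 (SE 0.047, adjusted p = 5.28e-07). Both genes of that pair rose, with no overlap between groups. In the other neighbouring pair, Il2ra rose and Il15ra fell. Il15ra, which presents IL-15, was the lowest of the 7 at 6.65 and 6.75 CPM in control, against 5.73 and 5.04 CPM in butyrate. Its log2 change was -0.31 (SE 0.090, adjusted p = 0.0057). The Il15ra call ended with DESeq2 (log2 change -0.31, adjusted p = 0.0969) and without butyrate replicate 2 (-0.22, adjusted p = 0.0932).

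**Figure D1:**
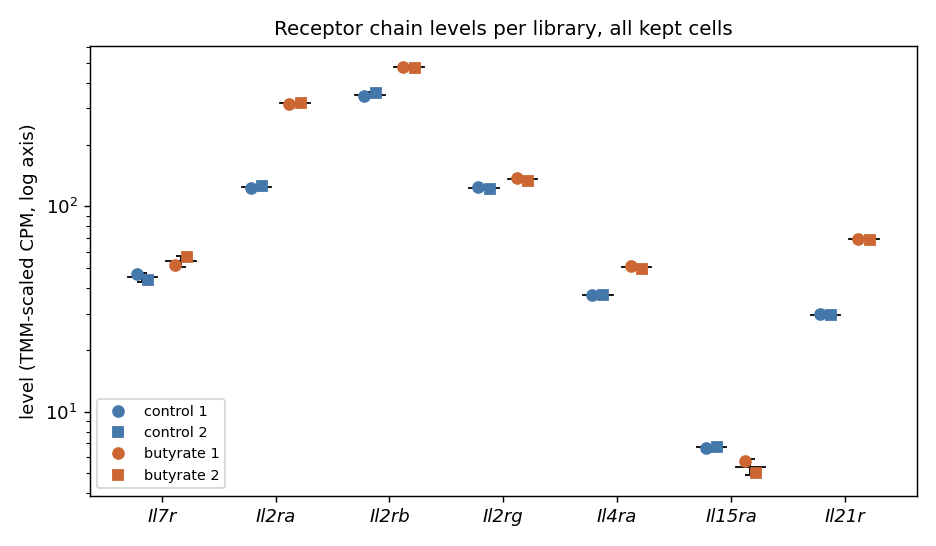
Level of each receptor chain in each library, in TMM-scaled CPM on a log axis; points are libraries (circle, replicate 1; square, replicate 2), horizontal lines group means and error bars SD (n = 2). Il2ra and Il21r show the widest gaps between groups, and Il15ra is the gene that is lower under butyrate.

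The make-up of the receptor transcripts moved toward Il2ra. These libraries count the 3' end of each transcript once, so counts are not divided by length, and how well each gene is captured is unknown. The 7 genes gave 18.8 and 18.4 UMIs per cell in control, against 28.0 and 26.6 in butyrate, or 0.0759% and 0.0778% against 0.104% and 0.103% of all UMIs. Il2rb was the largest share in every library. Il2ra made up 17.3% and 17.5% of the receptor UMIs in control, against 28.5% and 28.9% in butyrate. Il21r went from 4.18% and 4.08% to 6.25% and 6.20%. The shares of the other 5 genes were lower under butyrate: Il2rb went from 48.3% and 49.4% to 43.1% and 42.8%, and Il2rg from 17.5% and 16.9% to 12.4% and 12.1%. Il7r went from 6.56% and 6.04% to 4.64% and 5.11%, although its CPM was higher. With 2 against 2 libraries an exact two-sided permutation test cannot give a p below 0.33, which each of these 7 shares reached.

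**Figure D2:**
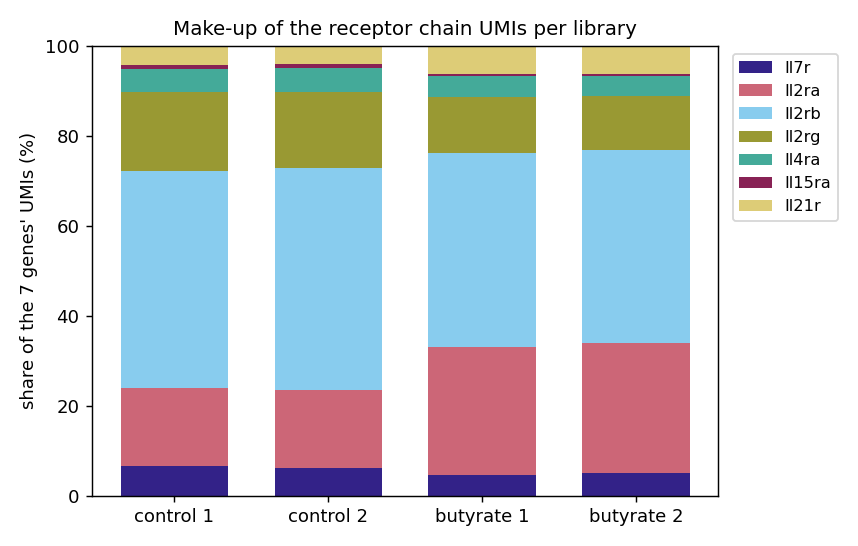
Share of each receptor chain in the UMIs of the 7 genes, in percent, as a stacked bar for each library. The Il2ra segment is 17.3% and 17.5% in control, against 28.5% and 28.9% in butyrate.

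Set against Il2rg, which encodes the common chain of these receptors, Il2ra gained most. The ratio of Il2ra to Il2rg UMIs was 0.988 and 1.03 in control, against 2.30 and 2.39 in butyrate, a log2 change of 1.21. The Il21r to Il2rg ratio went from 0.239 and 0.242 to 0.505 and 0.512, a log2 change of 1.08. Il2rb and Il4ra gained less on Il2rg (log2 changes 0.30 and 0.31), and Il15ra lost (-0.46). The groups did not overlap for these 5 ratios, each with an exact permutation p of 0.33 (adjusted p = 0.4 over 6 ratios), the smallest the design allows. The Il7r to Il2rg ratio was 0.375 and 0.357 in control, against 0.375 and 0.423 in butyrate. These groups overlapped (exact permutation p = 0.667), and the sign of the Il7r change turned after thinning to 8000 UMIs and with the sum of all 7 genes as denominator. Il2ra outnumbered Il7r 2.63 and 2.89 times in control, against 6.13 and 5.65 times in butyrate. Il2ra stood at 0.358 and 0.354 of Il2rb in control and at 0.660 and 0.675 in butyrate.

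Shares of cells with a UMI were compared after thinning each cell to 8000 UMIs, which left out 71, 112, 54 and 68 shallower cells in control 1, control 2, butyrate 1 and butyrate 2. Il2ra was detected in 52.2% and 52.5% of control cells and in 78.2% and 77.2% of butyrate cells. Il21r was detected in 23.1% and 22.3% against 41.9% and 39.6%. Il2rb was found in 89.7% to 93.7% of cells in every library. Exact 95% intervals of the Il2ra and Il21r shares did not overlap between groups, and like all intervals here they cover counting error only.

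Il15ra was detected in few cells, 6.04% and 5.28% in control, against 4.07% and 3.31% in butyrate. Il4ra was detected in 30.4% and 28.5% against 31.9% and 32.4%. Il2rg was detected in slightly fewer butyrate cells, 62.8% and 60.7% against 65.3% and 65.0%, while its CPM over all kept cells was higher, so no order is read from these shares. Each of the 7 share differences had an exact permutation p of 0.33. Cd79a, a B cell gene, was detected in at most 0.101% of cells. No cell type that lacks these chains was captured in number, so the background of the receptor genes themselves could not be read from such cells. In barcodes with at most 100 UMIs, which hold free RNA, Il2ra was at 107 and 119 CPM in control, against 231 and 241 CPM in butyrate, and Il7r at 47.8 and 48.5 against 37.4 and 40.8 CPM. The part of free RNA in the shares was not tested.

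**Figure D3:**
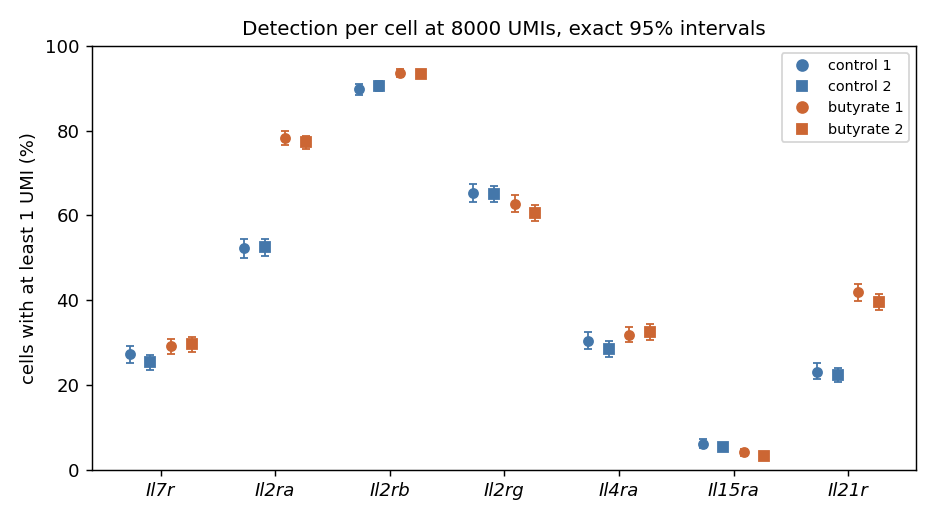
Share of cells with at least 1 UMI of each receptor chain after thinning to 8000 UMIs, in percent, for each library; bars are exact 95% binomial intervals (counting error only). Il2ra and Il21r show the widest gap between the groups, and the Il7r shares lie between 25.3% and 29.6%.

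The level of Il7r was spread differently over cells in the 2 groups. Il7r was detected in 27.2% and 25.3% of control cells and in 29.1% and 29.6% of butyrate cells, but at this depth cells with 5 or more Il7r UMIs were a larger share of the controls. At least 5 Il7r UMIs were found in 2.06% and 2.22% of control cells and in 0.20% and 0.655% of butyrate cells. Cells with Il7r held on average 1.97 and 2.03 UMIs in control, against 1.47 and 1.55 in butyrate. The share of cells with at least 2 Il7r UMIs was 11.5% and 11.3% in control, against 9.74% and 9.67% in butyrate, the opposite order to the share with at least 1. Both patterns depended on depth. At 12000 UMIs per cell, at least 2 Il7r UMIs were found in 13.9% and 11.6% of control cells and more butyrate cells, 15.5% and 15.7%, and at least 5 in 2.17% and 2.10% against 0.617% and 1.54%. Without thinning, at least 2 were found in 26.1% and 23.4% against 30.2% and 31.3%, and for at least 5 the groups overlapped, at 7.29% and 6.34% against 6.72% in both butyrate libraries. Il2ra moved the other way at the top of its range. At least 5 Il2ra UMIs were found in 3.22% and 3.29% of control cells and in 18.2% and 17.1% of butyrate cells.

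The balance of Il2ra and Il7r within a cell shifted with it. Cells with more Il2ra than Il7r UMIs made up 44.2% and 44.3% of control cells, against 70.1% and 69.6% of butyrate cells. Cells with more Il7r than Il2ra made up 18.9% and 16.8% of control cells, against 7.46% and 8.28% of butyrate cells. Neither gene was detected in 32.7% and 34.2% of control cells and in 16.3% and 16.8% of butyrate cells. At least 4 of the 7 chains were detected in 30.7% and 28.1% of control cells and in 47.2% and 45.1% of butyrate cells. All chains of the IL-2 trimer, Il2ra, Il2rb and Il2rg, were found together in 31.7% and 30.4% of control cells and in 46.9% and 43.9% of butyrate cells.

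Joint detection was then set against the product of the single shares, which is what independent detection would give. For Il2ra with Il7r the observed share was 0.853 and 0.908 times the product in control, against 1.04 times in both butyrate libraries. Il7r with Il4ra was found 1.15 and 1.27 times the product in control, against 1.05 times in both butyrate libraries. For that pair the groups overlapped at 4000 UMIs, with 1.18 and 1.39 in control, against 0.970 and 1.21 in butyrate. At 12000 UMIs the values were 1.09 and 1.16, against 1.03 in both butyrate libraries. Il7r with Il2rg was found 1.08 and 1.09 times the product in control, against 1.03 and 1.05 times in butyrate. The IL-2 trimer stood at 0.983 to 1.04 times the product in all 4 libraries. Il7r and Il2ra were thus found together less than the product in control and slightly more than it in butyrate, and across cells of 1 library their Pearson correlation was -0.105 and -0.093 in control, against 0.104 and 0.107 in butyrate (1988 to 2596 cells). These correlations are weak, rest on sparse counts of cells that share a library, and are given as a description.

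The cells were next split by an Il7r UMI, to ask which other chains went with it. In control cells the mean Il2ra count was 1.10 and 1.08 UMIs where Il7r was at 0 and 0.632 and 0.593 UMIs where Il7r had 3 or more. In butyrate cells it was 2.49 and 2.40 UMIs where Il7r was at 0 and 3.59 and 3.45 where Il7r had 3 or more. Between these 2 ends Il2ra was therefore lower with Il7r in both controls and higher with it in both butyrate libraries. The steps between were not all in that order. Control 2 stood at 1.08 at both 0 and 1 Il7r UMIs, and control 1 rose from 0.853 at 1 to 0.971 at 2. Butyrate 2 went from 3.52 at 2 Il7r UMIs to 3.45 at 3 or more. The controls had 125 and 145 cells with 3 or more Il7r UMIs. Il2rg went with Il7r in all 4 libraries, from 1.07 and 1.05 to 1.75 and 1.83 UMIs in control and from 1.06 and 1.02 to 1.51 and 1.32 in butyrate.

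Cells with an Il7r UMI were compared with cells without one across all 4 libraries, with Il7r itself left out because it defines the classes. Il2rg (log2 difference 0.31, SE 0.074, adjusted p = 0.026) and Il4ra (0.36, SE 0.089, adjusted p = 0.028) were higher with Il7r by edgeR's quasi-likelihood test. These were 2 of the 6 other chains, where 13.8% of all genes passed, 7.21% higher and 6.63% lower. Il2ra did not pass over both groups together (0.067, adjusted p = 0.733). By that test no chain passed without control replicate 1 (adjusted p 0.134 for Il2rg and 0.140 for Il4ra) or without control replicate 2 (0.148 and 0.147), although 2 had an unadjusted p under 0.05 in each case. Cells with Il7r were shallower before thinning, with medians of 16537 and 16292 UMIs against 24761 and 23037.5 in control and of 23408 and 21162 against 26182 and 25106 in butyrate. The part of depth in this contrast was not tested.

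Whether this contrast differed between the groups was tested after the data had been seen. The difference, butyrate minus control, was 0.66 for Il2ra (SE 0.061, adjusted p = 2.15e-11), -0.31 for Il2rg (SE 0.065, adjusted p = 0.000354), -0.39 for Il4ra (SE 0.10, adjusted p = 0.0064) and -0.35 for Il21r (SE 0.12, adjusted p = 0.0296). These were 4 of 6 chains by edgeR's quasi-likelihood test, where 17.3% of all genes passed, 9.34% with a positive and 8% with a negative difference. Il2ra and Il2rg passed under all 7 alternatives. Il4ra and Il21r did not pass after thinning to 4000 UMIs (adjusted p = 0.0900 and 0.853) or without control replicate 2 (0.0983 and 0.470), and Il21r did not without butyrate replicate 2 (0.191) or with library totals alone (0.0804).

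**Figure D4:**
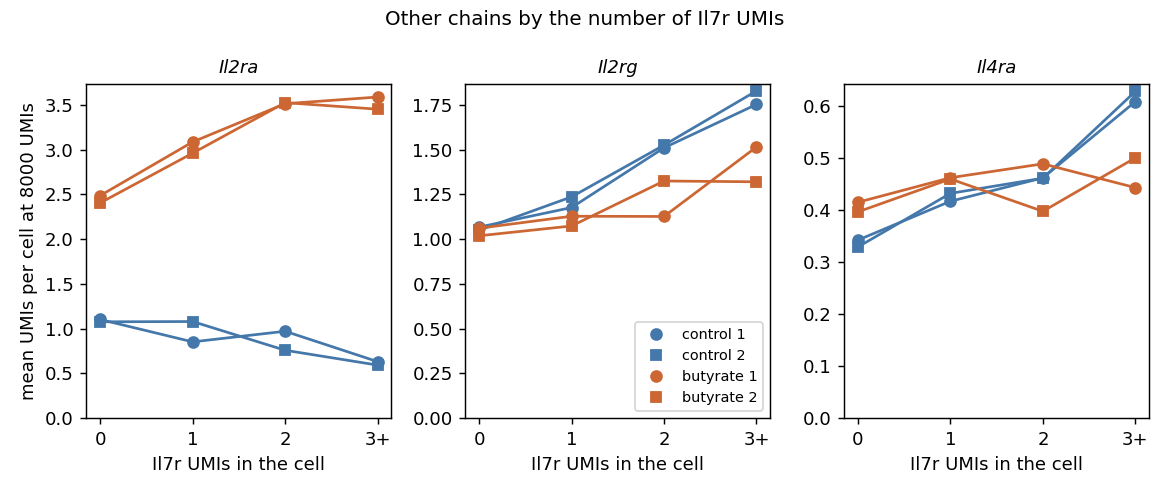
Mean UMIs per cell of Il2ra, Il2rg and Il4ra (y axes, cells thinned to 8000 UMIs) against the number of Il7r UMIs in the cell (x axes), with 1 line per library. Il2ra goes from about 1.1 to 0.6 UMIs along the axis in control and from 2.40 or more to 3.45 or more in butyrate.

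The change was also taken within cells that had no UMI of Mki67 and Top2a, 2 transcripts of dividing cells. These were 271 and 374 control cells and 359 and 414 butyrate cells, 13.6% to 15.9% of each library. Here Il7r fell and Il2ra rose by more than in all cells at the same depth (log2 changes -0.048 and 1.56). Il7r stood at 195 and 158 CPM in control and at 73.3 and 85.4 CPM in butyrate, a log2 change of -1.14 (SE 0.12, adjusted p = 4.51e-09). Il2ra stood at 100.4 and 68.6 CPM in control and at 375 and 343 CPM in butyrate, a log2 change of 2.11 (SE 0.12, adjusted p = 4.65e-13).

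In the same cells Il21r (log2 change 1.24, adjusted p = 6.46e-08) and Il2rb (0.39, adjusted p = 0.000721) rose by edgeR's test. Il2rg (-0.11, adjusted p = 0.370), Il4ra (-0.13, adjusted p = 0.449) and Il15ra (-0.45, adjusted p = 0.259) did not pass. In all, 4 of the 7 chains passed, 3 higher and 1 lower, where 43.9% of all genes did, 22.4% higher and 21.6% lower. These cells differed between groups in other ways. Their median UMIs before thinning were 12852 and 13141.5 in control, against 20726 and 19389.5 in butyrate, and Tcf7, a transcription factor of naive and memory T cells, was detected in 38.4% and 34.8% of them in control and in 5.01% and 8.21% in butyrate. Among cells with at least 12000 UMIs before thinning the Il7r change was -0.58 (adjusted p = 0.00215). Among the cells that also had a Tcf7 UMI (104, 130, 18 and 34 cells), the mean Il7r count was 2.52 and 2.18 UMIs in control, against 1.44 and 1.74 in butyrate. Without Tcf7 it was 1.02 and 0.869 against 0.516 and 0.558, so the butyrate libraries were lower on either side of that split.

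In cells with Mki67 or Top2a, thinned in the same way, Il7r rose instead. It went from 43.5 and 43.3 CPM in control to 54.5 and 56.6 CPM in butyrate (edgeR log2 change 0.36, SE 0.065, adjusted p = 4.27e-05). Over 6 alternatives that log2 change ran from 0.16 to 0.39. Without TMM scaling, these cells held a mean of 0.370 and 0.373 Il7r UMIs in control, against 0.407 and 0.423 in butyrate. All 7 chains passed by edgeR's quasi-likelihood test in these cells, 6 higher and Il15ra lower, where 61.6% of all genes passed, 31.1% higher and 30.4% lower. Il15ra (-0.41, adjusted p = 0.0392) and Il2rg (0.13, adjusted p = 0.0346) were the closest to the threshold, and Il2rg was lower with library totals alone (-0.071, adjusted p = 0.239). Of 6 alternatives, Il2rg passed under 2, Il15ra under 4 and each of the other chains under all. This fit was added after the data had been seen.

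The butyrate change in cells with Mki67 or Top2a, minus that in cells without, was 1.54 for Il7r (SE 0.11, adjusted p = 6.47e-38), -0.60 for Il2ra (SE 0.099, adjusted p = 1.19e-07), 0.64 for Il4ra (SE 0.13, adjusted p = 3.78e-05) and 0.28 for Il2rg (SE 0.094, adjusted p = 0.0185). These 4 of the 7 chains passed, 3 with a positive and 1 with a negative difference, where 18.2% of all genes did, 10.4% positive and 7.8% negative. Il7r passed under all 8 alternatives. Il2rg passed under none of them, with adjusted p from 0.0829 to 0.916. Il2ra did not pass without control replicate 2 (-0.32, adjusted p = 0.0826), and Il4ra did not after thinning to 4000 UMIs (0.29, adjusted p = 0.250) or among cells with at least 12000 UMIs (0.23, adjusted p = 0.532). Per cell, the cells without Mki67 and Top2a held 4.31 and 3.55 times as many Il7r UMIs as the others in control, against 1.38 and 1.55 times in butyrate.

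**Figure D5:**
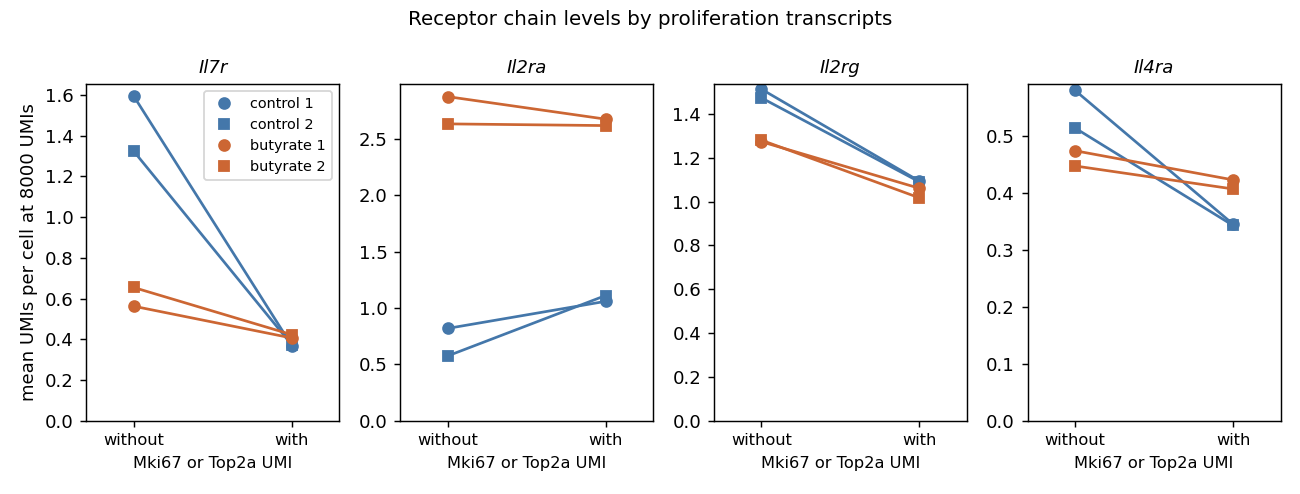
Mean UMIs per cell of Il7r, Il2ra, Il2rg and Il4ra (cells thinned to 8000 UMIs) in cells without and with a Mki67 or Top2a UMI, with 1 line per library. Il7r in control cells without these transcripts is at 1.59 and 1.32 UMIs, against 0.563 and 0.655 in butyrate, and the 4 libraries lie between 0.370 and 0.423 in the other cells.

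Genes whose levels followed a chain across cells were ranked by the mean Pearson correlation over the 4 libraries among 7330 genes, and those with a mean of at least 0.2 were named. For Il7r these were Tpt1 (0.244), Btg1 (0.240) and Tcf7 (0.235). Tcf7 correlated with Il7r at 0.409 and 0.360 in control and at 0.0507 and 0.119 in butyrate. For Il2ra they were the cell cycle genes Cdk6 (0.297) and Ccnd2 (0.259) and the ribosomal protein gene Rps15 (0.256). No gene reached that mean for the other 5 chains. Cells of a library share its processing, and these values carry no test.

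Other genes of the pathway were taken from lists by role, and all calls are from edgeR's quasi-likelihood test over the whole table. Each count of genes passed is to be read against the 71.8% of all genes that passed, 36% higher and 35.7% lower. Of the 7 ligand genes, Il2, Il7, Il9, Il15, Il21, Tslp and Il4, only Il2 and Il4 passed the filter. Il2 had 46 and 43 UMIs in control, against 61 and 44 in butyrate and did not pass the test (adjusted p = 0.582). Il4 had 1 and 2 UMIs in control, against 78 and 207 in butyrate, a ratio of 90.04 per scaled UMI (exact 95% counting interval 30.5 to 439). Il4 passed the test as higher (adjusted p = 0.0315). Il7, Il15 and Tslp had at most 3 UMIs in any library, and Il9 and Il21 had none. Of 3 other receptor chains, Il9r, Crlf2 and Il13ra1, 2 passed the filter and both passed the test, as did 71.8% of all genes. Among them, Il9r had no UMI in control, against 26 and 12 in butyrate, at least 12.01-fold higher against a floor of 3 counts over the group. Crlf2, the TSLP receptor chain that pairs with Il7r, fell by 0.74 on the log2 scale (48.5 to 29.1 CPM, adjusted p = 5.25e-09).

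Of 3 kinases, Jak3, the partner of the common chain, fell by 0.38 (adjusted p = 0.000393) and Tyk2 fell by 0.26 (adjusted p = 0.000784) on the log2 scale. Jak1 did not pass (-0.081). Of 5 STAT genes, 1 was higher and 2 lower, against 71.8% of all genes passing. The smallest p were those of Stat6, the IL-4 pathway factor, at -0.90 (adjusted p = 8.85e-10), and Stat5b at -0.43 (adjusted p = 9.58e-06). Of 7 feedback genes 4 were higher and 2 lower, against 71.8% of all genes passing. The smallest p were those of the phosphatase gene Ptpn6 at -0.98 (adjusted p = 2.28e-08) and Socs1 at 0.51 (adjusted p = 1.00e-07). The largest change was that of Socs3 at 1.64 (adjusted p = 9.87e-06), named after its values were seen.

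Of 10 genes known as targets of IL-2 family cytokines, 8 were higher and 2 lower (all genes, 36% and 35.7%), with a median log2 change of 0.71 against -0.0079 for all genes. The granzyme gene Gzmb was at 1.90 (adjusted p = 5.05e-14), though its close paralogues may share reads, and Osm at 1.74 (adjusted p = 1.33e-12). Of 11 transcription factor genes linked to the receptor genes, 6 were higher and 4 lower (all genes, 36% and 35.7%). Foxo1, which acts on Il7r, was at 1.15 (adjusted p = 1.25e-11) and Nfkb1 at 0.82 (adjusted p = 2.23e-10).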

How the data were processed

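The deposited matrices held UMI counts per gene and barcode for 4 libraries (10x 3' v3.1, per the labels' protocols), with Cell Ranger 4, Seurat 4.3 and mm10 named in the submitters' processing notes. Cells were barcodes above 10% of the 99th percentile of the top 3000, with at least 500 genes and under 10% mitochondrial UMIs. No doublets were removed. Tests used edgeR 4.0.16 (R 4.3.3) on UMI sums per library, with TMM, filterByExpr, robust quasi-likelihood dispersion and group as term. Fits on cells split by Mki67 and Top2a or by Il7r used thinned UMIs, summed per library and kind of cell. The contrast by Il7r UMI and both tests of a difference in effect held both sums of each library, with library as a block. Adjusted p under 0.05 passed. Each SE is the log2 change over root F. Scripts were tested on simulated data. Members and lists were chosen with earlier results of these data known. All 7 members were named, with up to 2 genes of smallest p per list, and up to 3 most-like genes per member. Alternatives changed the scaling, the low-count filter, the cell limits, the depth, the tool (DESeq2 1.42.0) and the libraries. Replicate numbers name the mouse, so they pair the samples; same-mouse deviations correlated at 0.0594 across 13487 genes. Members without a promoter entry are named only.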

Additional observations from a re-analysis of the deposited data

Results flagged for a closer look

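The butyrate change differed between cells with and without a Mki67 or Top2a UMI for 4 chains, by an interaction term in edgeR. Of all genes, 18.2% passed that test. Only the Il7r call held under all alternatives, and the Il2rg call held under none. The difference (change with minus change without, log2 scale) was 1.54 for Il7r, -0.60 for Il2ra, 0.28 for Il2rg and 0.64 for Il4ra. The Il7r change had opposite signs in the 2 kinds of cell.

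The contrast of cells with and without an Il7r UMI also differed between the groups for 4 chains, in a test added after the data had been seen. Of all genes, 17.3% passed that test. The Il2ra and Il2rg calls held under all alternatives, and the Il4ra and Il21r calls under only some. The difference, butyrate minus control on the log2 scale, was 0.66 for Il2ra, -0.31 for Il2rg, -0.39 for Il4ra and -0.35 for Il21r. Il2ra was lower with Il7r in both control libraries and higher with it in both butyrate libraries.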

How the results depend on the processing

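Il2ra, Il2rb, Il4ra and Il21r kept their direction and their call under all 12 alternatives of the test in all kept cells. With the mouse as a replicate block, all 7 chains passed in all kept cells, 4 passed in cells without Mki67 and Top2a and 7 in the other cells, so this pairing changed no call. The cause of the changes listed next was not tested. In the tests on cells split by Mki67 and Top2a, the limits of 12000 UMIs and of 5% mitochondrial UMIs were chosen after seeing the data, as were the other depths for joint detection. In all kept cells the Il7r change was -0.048 after thinning to 8000 UMIs, and the Il2rg change was -0.061 with library totals alone (-0.071 in cells with Mki67 or Top2a). In cells without Mki67 and Top2a, changes that had not passed turned sign: Il4ra to 0.26 and Il15ra to 0.44 at 4000 UMIs, and Il2rg to 0.052 and Il4ra to 0.18 with at least 12000 UMIs. The difference between the 2 kinds of cell passed for 2 chains at 4000 UMIs, for 2 with at least 12000 UMIs, and for 2 to 3 with a library left out. That difference turned to -0.035 for Il2rb, -0.046 for Il15ra and -0.062 for Il21r with library totals alone, to -0.14 for Il2rb at 5% mitochondrial UMIs, to -0.54 for Il15ra at 4000 UMIs and to -0.48 for Il21r with at least 12000 UMIs. With a library left out it ran from -0.23 to 0.40 for Il15ra and from -0.13 to 0.26 for Il21r. The contrast by Il7r UMI passed for 0 to 2 chains with a library left out, and ran from -0.047 to 0.21 for Il2ra and from -0.19 to 0.16 for Il15ra. Its difference between groups passed for 2 chains at 4000 UMIs and for 2 to 4 with a library left out, turned to -0.0042 for Il2rb at 4000 UMIs, and ran from -0.19 to 0.85 for Il15ra. The difference in the share of cells with Il7r was -0.46 percentage points at 4000 UMIs and -1.73 for at least 2 UMIs. The Il7r to Il2rg ratio changed by -0.15 after thinning. With the sum of all 7 genes as denominator the ratio changed by -0.37 for Il7r, -0.19 for Il2rb and -0.18 for Il4ra. The gap between groups in joint detection of Il2ra and Il7r, 0.16 at 8000 UMIs, was 0.39 at 4000. Fits that leave out a library assume that the lone culture varies like the other group. Il15ra had the fewest counts, 323 to 454 UMIs per library.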
